A study of Homo sapiens with 8 samples.

Results

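The genes described here form the receptor end of the interferon gamma (IFNγ) response: the receptor chains IFNGR1 and IFNGR2, the kinases JAK1 and JAK2, the transcription factors STAT2 and STAT3, and the brakes on the pathway SOCS1, SOCS3 and PTPN2. These 9 genes were taken from a named list, out of 20033 protein-coding genes with an annotated promoter, and the H3K4me3 peaks within 3 kb of each gene's 5′ end were read in 6 libraries. H3K4me3, histone H3 trimethylated at lysine 4, is typically found at the promoters of active genes. The cells were U2OS, a human osteosarcoma line, either wild type (WT) or with a knockout (KO) of the telomere- and promoter-binding zinc finger factor ZBTB48. Every library came from its own clone, 3 WT and 3 KO, from clones the study had described earlier, and the labels give 250 U/ml IFNγ for 24 h for all of them. A figure legend of the study names a longer treatment for its H3K4me3 tracks, and the labels were followed here. There was no untreated library, so a level under IFNγ cannot be set against a level without it. The 2 WT input libraries were not used here.

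IFNγ binds a receptor made of IFNGR1, the ligand-binding chain, and IFNGR2, the accessory chain. JAK1 rides on IFNGR1 and JAK2 on IFNGR2, and after binding they phosphorylate STAT proteins, which move to the nucleus and switch on interferon genes, CIITA (the master activator of MHC class II genes) among them. SOCS1 and SOCS3, themselves interferon or cytokine target genes, block the kinases or their receptors, and the phosphatase PTPN2 removes phosphate from kinases and STATs. The comparison asks whether this chain, which lies upstream of CIITA, was marked alike in both genotypes.

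All 9 promoters were marked in both genotypes. Each gene had exactly 1 peak within 3 kb in each of the 6 libraries, and in 54 of 54 cases that peak spanned the 5′ end itself. The number of marked members was therefore 9 in every library, a WT minus KO difference of 0. Across all protein-coding promoters, 13399 of 20033 (66.9%) had a peak in all 6 libraries, so being marked throughout was the usual state of a promoter. At CIITA, by contrast, peaks within 3 kb of the 5′ end covered 3471, 3318 and 2837 bp in WT replicates 1, 2 and 3, against 0, 1275 and 0 bp in KO replicates 1, 2 and 3. The study gives a range of reads per sample for its ChIP-seq, but the lists hold no read counts. The depth of each single library is therefore unknown. A missing peak says only that none passed the caller's threshold.

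The lists were not of one kind, and this bears on every length below. On the autosomes, X and Y they held 21712 to 26370 peaks. WT replicates 1 and 2 had median peak widths of 2297 and 2353 bp and median fold enrichments of 13.4 and 14, while WT replicate 3 and the 3 KO lists had widths of 1275 to 1487 bp and fold enrichments of 4.19 to 4.65. Each promoter was therefore read on a pair of scales. The first was the covered length, the bp under peaks within 3 kb either side of the 5′ end. The second was the percentile of that length within the same library, among the 13399 promoters marked in all 6, which sets a promoter against the others of its own list. The window caps both scales, so peaks that run past 3 kb are cut. WT replicate 3 against the KO libraries was given as well, as a comparison of lists of the same kind. As to cell identity, 4 of 8 osteoblast-lineage markers (RUNX2, COL1A1, SPARC and SPP1) were marked in all 6 libraries and SP7, ALPL, COL1A2 and BGLAP in none, EPCAM, KRT8 and KRT18 of 4 epithelial markers were marked in all 6 and CDH1 in none, and 0 of 7 leukocyte markers were marked in any. The promoter of the targeted gene, ZBTB48, carried a peak in all 6 libraries, so the mark there does not report the knockout.

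The promoter sequences lay above the median in GC content, some of them only slightly, and lacked the TATA box, as most promoters do. In the 300 bases from 250 before to 50 after the 5′ end, read from GRCh38 at the GENCODE position, the GC content of all 9 members lay above the median promoter's 63.7%, with a members' median of 74%. At IFNGR1 and STAT3 it was 65.3%. All 9 held the GC box GGGCGG on either strand, which 61.3% of 20032 promoters held, and 0 of 9 held TATAAA on either strand, against 9.71% of promoters. The promoters counted here include ones without a peak, while all 9 members were marked. The receptor promoters are shown because they differ in the number of GC boxes. IFNGR2 had 5 GC boxes in the 300 bases and IFNGR1 had 1. The other members ranged from 1 at JAK2 to 6 at JAK1 and PTPN2, so such a difference is not particular to the receptors. Below are the 100 bases before the most upstream annotated 5′ end of each, on the gene's own strand, with GC boxes in capitals (written as CCGCCC where the box is on the other strand). IFNGR1 is chr6:137219450-137219549, minus strand, and IFNGR2 is chr21:33403313-33403412, plus strand.
IFNGR1: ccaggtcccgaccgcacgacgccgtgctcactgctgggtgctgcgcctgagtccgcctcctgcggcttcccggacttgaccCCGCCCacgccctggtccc
IFNGR2: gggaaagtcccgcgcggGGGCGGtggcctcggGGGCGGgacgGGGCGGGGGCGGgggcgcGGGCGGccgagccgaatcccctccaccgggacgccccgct

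Of the further motifs looked for in the same windows, a pair is given here. The letters GAAANNGAAA, a pair of GAAA repeats as in interferon response elements, occurred in 3.28% of promoters and in 1 member, SOCS1, 113 to 104 bases before the 5′ end. It was searched on both strands, and a match is a description of letters and not of a bound site. The telomeric repeat unit TTAGGG, which ZBTB48 can bind, occurred in 8.54% of promoters and in 1 member, STAT2, after the 5′ end and on the strand opposite to the gene (both strands were searched). The SOCS1 promoter is shown because it alone among the members held the paired repeat, and is printed on the gene's strand with the motif in capitals, from chr16:11256263-11256362, minus strand.
SOCS1: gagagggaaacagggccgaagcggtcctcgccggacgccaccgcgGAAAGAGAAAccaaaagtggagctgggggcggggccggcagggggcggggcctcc

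**Figure D1:**
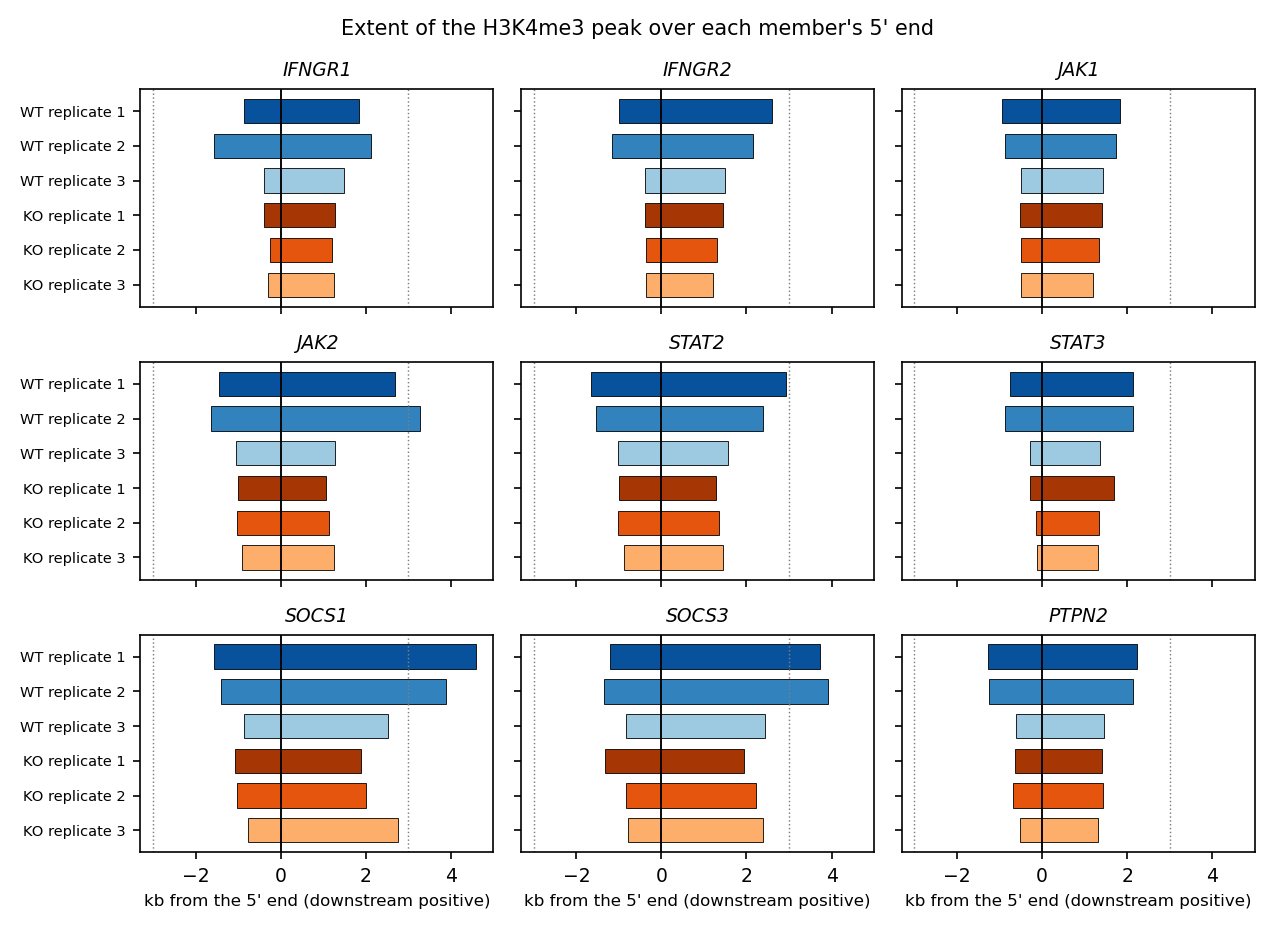
Each bar is the H3K4me3 peak over a member's 5′ end in 1 library, drawn in kb from the 5′ end with the gene's own direction to the right; dotted lines mark 3 kb either side. WT replicates 1 and 2 have the longest bars at every gene, WT replicate 3 resembles the KO libraries, and only SOCS1 and SOCS3 in WT replicates 1 and 2 and JAK2 in WT replicate 2 run past 3 kb downstream.

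At the receptor, IFNGR1 (ENSG00000027697, chromosome 6, 137197483 to 137219449 on GRCh38, minus strand) had covered lengths of 2706, 3702 and 1885 bp in WT replicates 1, 2 and 3 and of 1666, 1460 and 1548 bp in KO replicates 1, 2 and 3. All WT values were above all KO values, the lowest of them, replicate 3, by 219 bp. The mean was 2764.3 ± 910 bp in WT and 1558 ± 103 bp in KO (SD, n = 3 each; two-sided exact permutation p = 0.1, the smallest that 3 against 3 allows). As a place within its own list, the gene stood at percentiles 28.8, 65.6 and 43.2 in WT and 29.3, 27.8 and 41 in KO. These ranges overlapped, with WT replicate 1 between KO replicates 2 and 1. The WT minus KO difference was 13.2 percentile points (exact permutation p = 0.3). It rested on 1 library, WT replicate 2, without which it was 3.28 points, and it was 21.7 points without WT replicate 1. The WT peaks also reached all 16 annotated 5′ ends of the gene, and the KO peaks 15 of them.

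IFNGR2 (ENSG00000159128, chromosome 21, 33403413 to 33479348, plus strand) had covered lengths of 3613, 3314 and 1875 bp in WT and of 1820, 1675 and 1576 bp in KO. Here too the groups did not overlap in length, but WT replicate 3 led the highest KO library by only 55 bp. Its percentiles were 59.1, 52 and 42.4 in WT and 41.2, 43.1 and 43.1 in KO. WT replicate 3 fell within the 1.9-point range of the KO clones, and WT replicates 1 and 2 lay above it, for a mean difference of 8.74 points (exact permutation p = 0.3). A lncRNA, ENSG00000289939, starts 760 bp upstream on the same strand, within the window. The annotated IFNGR2 span ends under another peak, 76 kb downstream, that covers the TMEM50B promoter in every library.

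Among the kinases, JAK1 (ENSG00000162434, chromosome 1, 64833223 to 65067754, minus strand) had covered lengths of 2770, 2602 and 1922 bp in WT and of 1942, 1835 and 1703 bp in KO. The groups overlapped, because KO replicate 1 exceeded WT replicate 3 by 20 bp. Its percentiles were 30.7, 24.6 and 45.5 in WT and 50.1, 54.4 and 52.5 in KO. Every KO library placed JAK1 higher than every WT library, with a mean WT minus KO difference of -18.7 points (exact permutation p = 0.1, and 0.551 after Benjamini-Hochberg adjustment over 13399 promoters). At the 5′ ends used here this was the largest percentile difference of the 9 genes, and 4.61 points separated WT replicate 3 from the nearest KO library. The JAK1 gene held 2 further peaks in every library. The first lay 36 kb from the 5′ end used here, over the start of LINC01359, and the second 100 kb upstream, over 6 other annotated JAK1 5′ ends. That upstream peak was 4138, 4463 and 3084 bp wide in WT and 2733, 2576 and 2442 bp wide in KO, so the promoters of JAK1 were both marked in both genotypes. Read at that upstream end, which has the most covered bp of the gene's annotated ends, the percentile difference was -4.3 points (exact permutation p = 0.6) and the genotypes overlapped in percentile, though not in length.

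JAK2 (ENSG00000096968, chromosome 9, 4984390 to 5129948, plus strand) had covered lengths of 4148, 4653 and 2327 bp in WT and of 2050, 2176 and 2177 bp in KO. The KO clones lay close together, at 2134.3 ± 73 bp (SD, n = 3), and WT replicate 3 lay 150 bp above the highest of them. Its percentiles were 76.3, 89.5 and 70.2 in WT and 57.6, 74.4 and 79.5 in KO. These overlapped, with WT replicate 3 between KO replicates 1 and 2, and differed by 8.15 points (exact permutation p = 0.5; 1.68 points without KO replicate 1). JAK2 thus stood in the upper part of every list and JAK1 near or below the middle, and JAK2 had the higher percentile of the pair in 6 of 6 libraries.

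**Figure D2:**
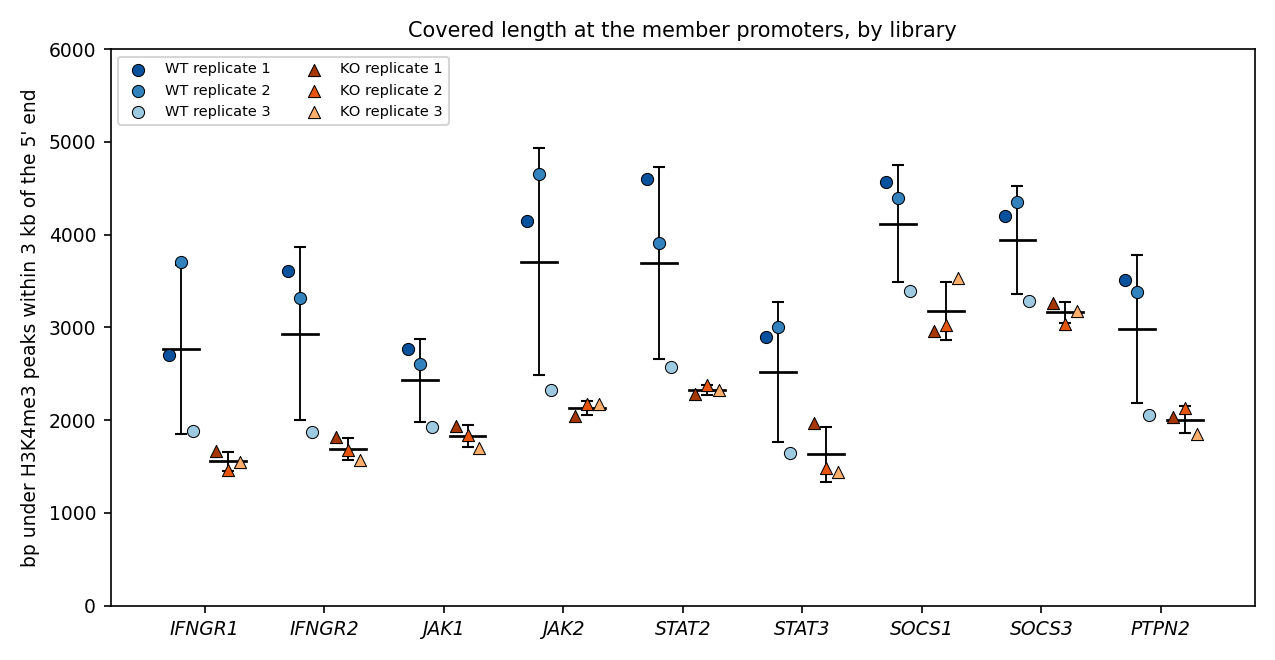
Bp under H3K4me3 peaks within 3 kb of the 5′ end for the 9 genes, with WT libraries as circles, KO libraries as triangles, and bars for the mean and SD of 3 libraries. WT replicates 1 and 2 stand above the KO libraries at all 9 genes, while WT replicate 3 is within 324 bp of the highest KO library at each.

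Of the transcription factors, STAT2, which pairs with IRF9 in the type I interferon complex, lies on chromosome 12 (ENSG00000170581, 56341597 to 56360203, minus strand). Its covered lengths were 4603, 3908 and 2571 bp in WT and 2278, 2381 and 2326 bp in KO, without overlap, WT replicate 3 leading by 190 bp. Its percentiles were 86.5, 72.4 and 80.1 in WT and 70.5, 82.6 and 85 in KO. The genotypes were interleaved on this scale, and the means differed by 0.326 points (exact permutation p = 1). The 5′ end of APOF, an apolipoprotein gene, lies 2750 bp upstream and inside the window.

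STAT3, the main factor downstream of IL-6 family cytokines (ENSG00000168610, chromosome 17, 42313324 to 42388540, minus strand), had covered lengths of 2895, 3009 and 1649 bp in WT and of 1973, 1482 and 1443 bp in KO. KO replicate 1 was longer than WT replicate 3, so the groups overlapped. Its percentiles were 35.2, 40.1 and 25.7 in WT and 52.4, 29.3 and 33.1 in KO, a difference of -4.59 points (exact permutation p = 0.7). No genotype was consistently higher, and the lowest of the 6 values was WT replicate 3. Of the STAT3 peak, 71.2 to 91.1% lay downstream of the 5′ end, the highest mean share among the members.

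The feedback inhibitors SOCS1 and SOCS3 had the highest mean percentiles among the members over the 6 libraries. They did not lead in every library, as STAT2 had the longest covered length in WT replicate 1 (4603 bp). In WT replicate 2 it was JAK2 (4653 bp). SOCS1 (ENSG00000185338, chromosome 16, 11254417 to 11256204, minus strand) had covered lengths of 4567, 4398 and 3394 bp in WT and of 2965, 3031 and 3533 bp in KO. KO replicate 3 exceeded WT replicate 3 by 139 bp, so the groups overlapped. Its percentiles were 85.8, 84.7 and 94.9 in WT and 90.4, 95 and 98.8 in KO, a difference of -6.22 points (exact permutation p = 0.2). At its full width the peak measured 6155, 5291 and 3394 bp in WT and 2965, 3031 and 3533 bp in KO, and it was wider than 94.9% or more of all peaks of each list. The SOCS1 gene, 1788 bp long, was 100% under the peak in all 6 libraries.

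SOCS3 (ENSG00000184557, chromosome 17, 78356778 to 78360077, minus strand) had covered lengths of 4203, 4348 and 3281 bp in WT and of 3268, 3042 and 3181 bp in KO. The groups were separated by 13 bp, the gap between WT replicate 3 and KO replicate 1. On the percentile scale the order turned, with 77.8, 83.6 and 93.9 in WT and 94.2, 95.1 and 97.3 in KO, a difference of -10.5 points (exact permutation p = 0.1). WT replicate 3 lay 0.3 points under KO replicate 1, and the other WT libraries lay further down. In those libraries the peak, 4927 and 5263 bp wide, ran past the window of 3 kb, which cut its covered length. Without the cut, the width percentiles among all peaks of a list were 91.1, 94.8 and 96.8 in WT and 97.2, 97.1 and 98.2 in KO. The gene is 3300 bp long and lay 100, 100 and 73.9% under peaks in WT and 58.9, 67.1 and 72.4% in KO. A divergent lncRNA, SOCS3-DT, starts 299 bp upstream on the opposite strand under the same peak.

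Breadth and height did not go together at the SOCS genes. In WT replicate 3 and the KO lists the fold enrichment of the SOCS1 peak, averaged over its length by the authors' peak caller, was 2.53 to 2.85 and stood at percentiles 2.96 to 9.51 of the fold enrichments in the list. That of SOCS3 was 2.77 to 3.23, at percentiles 6.89 to 16.3. In WT replicates 1 and 2 the same peaks stood at percentiles 87.4 and 64.8 for SOCS1 and at 92.4 and 94 for SOCS3. The low rank was thus shared by WT replicate 3 and the KO clones. When peaks had to reach a fold enrichment of 4, SOCS1, SOCS3 and STAT2 lost their peak in these 4 libraries and JAK2 in 3 of them, which left 9, 9 and 5 marked members in WT and 6, 5 and 5 in KO. The same requirement left 58.7 to 79.3% of the reference promoters marked in these 4 lists and 99.2 and 99.3% in WT replicates 1 and 2.

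PTPN2, the phosphatase that acts on JAK1 and on STAT proteins (ENSG00000175354, chromosome 18, 12785478 to 12929643, minus strand), had covered lengths of 3509, 3381 and 2061 bp in WT and of 2034, 2132 and 1850 bp in KO. WT replicate 3 lay between KO replicates 1 and 2, so the groups overlapped. Its percentiles were 55.8, 54.5 and 55.3 in WT and 56.5, 72.3 and 62.7 in KO. All KO values were above all WT values, with a mean difference of -8.59 points (exact permutation p = 0.1), although the nearest pair, KO replicate 1 and WT replicate 1, stood 0.7 points apart. The 3 WT clones agreed within 1.3 points, closer than at any other member.

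**Figure D3:**
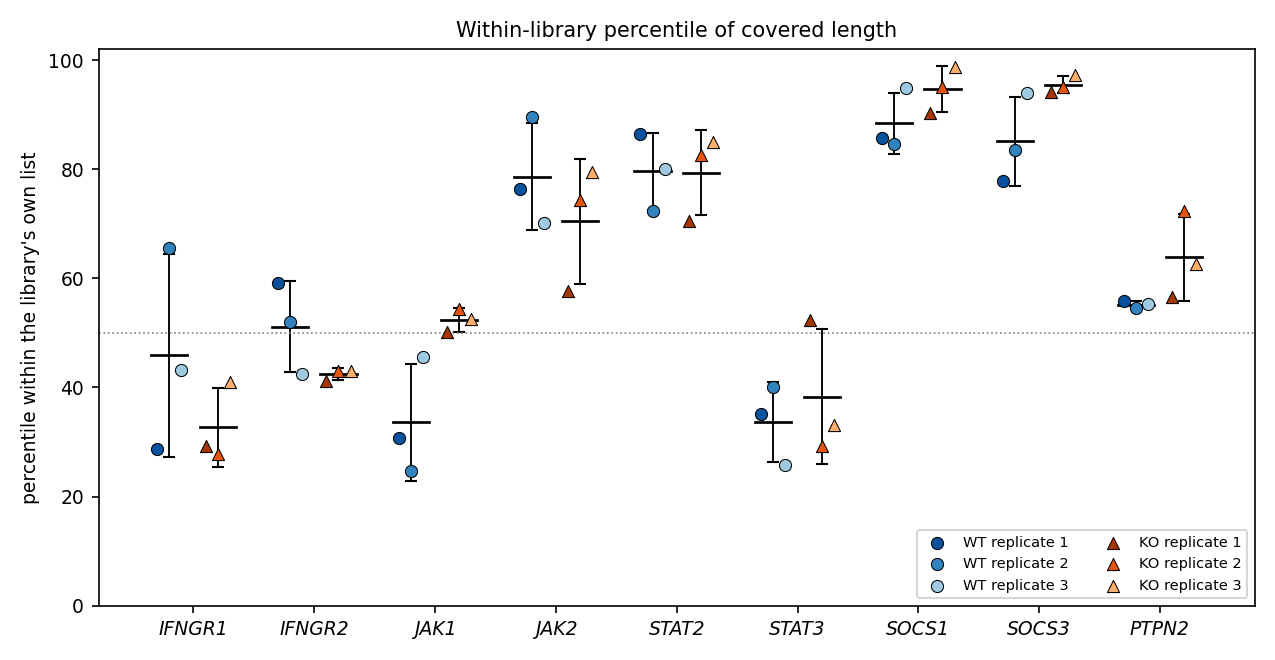
Percentile of each gene's covered length within its own library, among 13399 promoters marked in all 6 libraries (dotted line, the median), with WT as circles, KO as triangles and bars for the mean and SD of 3 libraries. SOCS1, SOCS3, STAT2, JAK2 and PTPN2 lie above the middle in every library, and the KO triangles lie above all WT circles at JAK1, SOCS3 and PTPN2.

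Counted over the chain, 5 of 9 members (IFNGR1, IFNGR2, JAK2, STAT2 and SOCS3) had every WT covered length above every KO one, and 0 had the reverse. Among 14422 promoters with any covered bp, 50.8% had the first pattern and 0.111% the second, so the count over the members was close to that of promoters in general. The median WT minus KO difference over the members was 978.3 bp, beside 965 bp over all promoters. No member's difference in length passed after Benjamini-Hochberg adjustment of the exact permutation p over all promoters, with adjusted p from 0.196 to 0.245. With WT replicate 3 left out, the other 2 WT libraries were above every KO library at 9 of 9 members. The share of all promoters with that order was not computed. Without WT replicate 3 the median difference was 1440 bp over the members and 1357 bp over all promoters, so the shift was not particular to the members. Set against the KO lists, which resemble it in kind, WT replicate 3 was above every KO library at the same 5 members (54.4% of 14281 promoters) and below every KO library at 0 (2.53%), with a median difference of 185 bp over the members and 163 bp over all promoters.

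On the percentile scale 0 of 9 members had every WT library above every KO library (6.53% of 13399 promoters) and 3 had the reverse (JAK1, SOCS3 and PTPN2; 11.6% of promoters). The median difference was -4.59 points over the members and -0.756 over the reference promoters. The 9 differences ran from -18.7 at JAK1 to 13.2 at IFNGR1, and 3.73 and 88.5% of the reference promoters had lower differences than these. No exact permutation test passed a threshold of 0.05, which 3 clones against 3 cannot reach, so a missed threshold does not show that a promoter was marked alike. The lists that differ in kind fall within the WT group, and for that pair of libraries the kind of list and the genotype cannot be told apart.

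**Figure D4:**
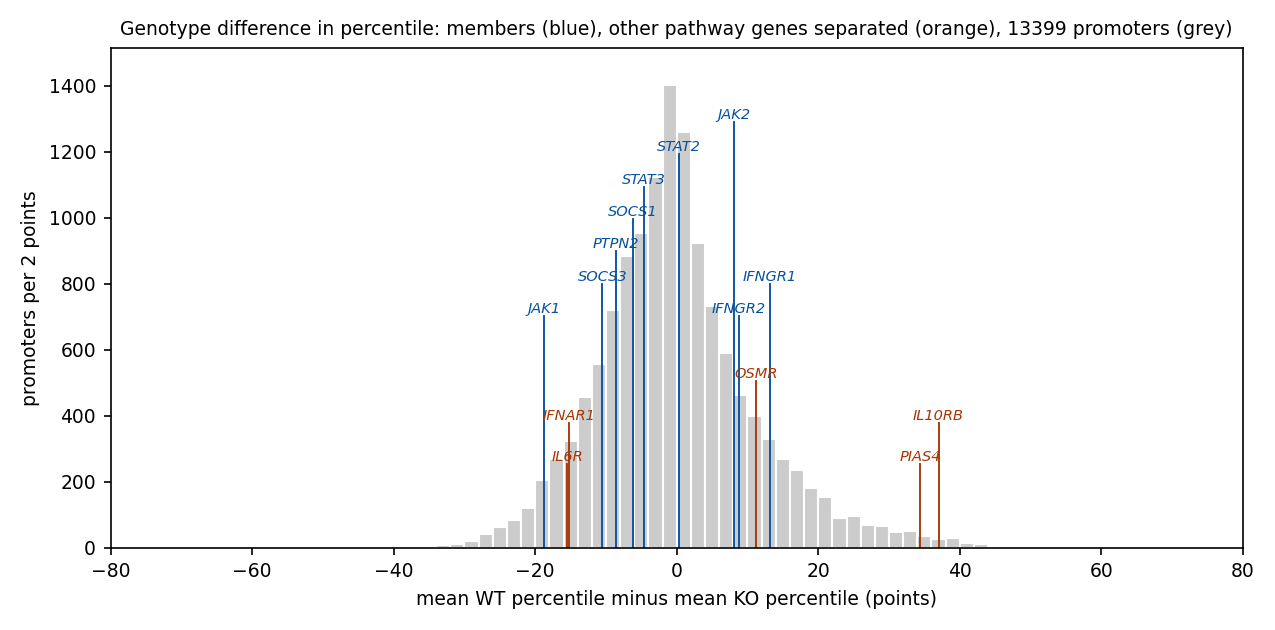
Histogram of the mean WT minus mean KO percentile over the 13399 reference promoters (grey, promoters per bin of 2 points), with the 9 members in blue and, in orange, the 5 other pathway genes whose clones separated by genotype; line heights carry no value. The members lie between -18.7 and 13.2 points, and PIAS4 and IL10RB lie apart from them at 34.4 and 37.

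Ordered by the mean percentile over the 6 libraries, SOCS1 (91.6 ± 5.58, SD over the 6) and SOCS3 (90.3 ± 7.79) came first, followed by STAT2 (79.5 ± 6.66), JAK2 (74.6 ± 10.6), PTPN2 (59.5 ± 6.9), IFNGR2 (46.8 ± 7.17), JAK1 (43 ± 12.4), IFNGR1 (39.3 ± 14.5) and STAT3 (36 ± 9.42). No gene was separated from the next in this order by all of its values. The nearest to a step was JAK2 over PTPN2, higher in 6 of 6 libraries. Both SOCS genes had means above those of the other 7 members. The third inhibitor, PTPN2, lay in the middle, and the receptor chains, JAK1 and STAT3 in the lower part.

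The peaks also shared a lean toward the gene body. In all 9 members more of the peak lay downstream than upstream of the 5′ end in all 6 libraries, in 54 of 54 values. The same held for 64.4% of the 12288 promoters with a single peak over the 5′ end in every library. The mean downstream share ran from 57.9% at JAK2 to 82.3% at STAT3, around a median of 62.9% over those promoters. At SOCS1 it was 74.6, 73.6 and 74.3% in WT and 63.8, 66.1 and 78.3% in KO, and at JAK2 64.8, 66.4 and 54.5% in WT and 51.5, 52.5 and 58% in KO. The genotypes overlapped at both genes, as at 6 of the other 7. The exception was STAT3, with 73.9, 71.2 and 82.5% in WT and 85.4, 89.7 and 91.1% in KO, a difference of -12.9 percentage points (exact permutation p = 0.1). Every KO library was above every WT library at this 1 member, as at 12.8% of the 12288 promoters, and the reverse held at 0 members and at 8% of promoters.

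For each member, the protein-coding gene over 10 kb away with the most similar 6 covered lengths, each divided by its library's median, was found by Euclidean distance. These were PTGFRN for IFNGR1, MOB4 for IFNGR2, VPS37C for JAK1, UBTD2 for JAK2, RHOA for STAT2, TMEM94 for STAT3, PRR12 for SOCS3 and LRP12 for PTPN2, at distances of 0.0437 to 0.0961. For SOCS1 the nearest was ZNF608, at 0.275. Among the genes searched, none thus came as near to the SOCS1 pattern, long in WT replicate 3 and KO replicate 3, as others did to the remaining 8. Whether such a distance is unusual for promoters as long as that of SOCS1 was not tested.

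The same reading was made of 30 other genes of the JAK-STAT pathway, from receptors to PIAS proteins, which restrain STATs as SUMO ligases. Of these 27 were marked in all 6 libraries. PTPN6, the phosphatase of blood cells, was marked in none. JAK3, a kinase of lymphoid cells, had 0, 1174 and 1024 bp in WT and 903, 0 and 352 bp in KO, and STAT4, another factor of lymphoid cells, had 400 bp in KO replicate 1 alone. Every WT covered length was above every KO one in 17 of the 30, and the reverse held in 0 (50.8 and 0.111% of all promoters). In percentile, 3 of the 30 had WT above KO throughout and 2 the reverse (6.53 and 11.6% of the reference promoters).

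Those 3 were IL10RB, OSMR and PIAS4. IL10RB, a receptor chain shared by IL-10, IL-22 and the lambda interferons, had 3645, 2848 and 2589 bp in WT and 1463, 1360 and 1344 bp in KO. OSMR, the oncostatin M receptor, had 5216, 5447 and 3543 bp in WT and 2609, 2568 and 2265 bp in KO. PIAS4 had 5222, 4752 and 3048 bp in WT and 1970, 1880 and 1880 bp in KO. At these genes WT replicate 3 led the highest KO library by 1126, 934 and 1078 bp, leads reached by 0.731, 1.49 and 0.836% of the reference promoters. Among the 9 members the widest such lead was the 219 bp of IFNGR1, which 13.3% of promoters reached. The exact permutation p was 0.1 for each of the 3 genes. They were picked from the other pathway genes because these same libraries separated by genotype. Neither the leads nor this p is therefore independent of that choice. The 9 members came from a named list, but it too was chosen with earlier results of these data known. In percentile, the reverse order was found at IFNAR1, a chain of the type I interferon receptor, and at IL6R, the IL-6 receptor. IFNAR1 stood at 31.8, 25.3 and 36.4 in WT and at 36.6, 47.6 and 54.7 in KO. WT replicate 3 and KO replicate 1 were nearly level there. In length IFNAR1 went the other way, with 2802, 2618 and 1795 bp in WT and 1761, 1737 and 1735 bp in KO. IL6R had percentiles of 18.2, 31 and 32 in WT and of 46.5, 45.4 and 35.7 in KO. Its groups overlapped in length, as KO replicate 1 (1891 bp) exceeded WT replicate 3 (1734 bp).

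SOCS1 is also a neighbour of CIITA. Their 5′ ends lie 379002 bp apart on chromosome 16, with DEXI and CLEC16A, which start close to each other in opposite directions, between them. DEXI had covered lengths of 6001, 6001 and 4184 bp in WT and of 4242, 3224 and 2659 bp in KO, and CLEC16A of 6001, 5550 and 3341 bp in WT and 3420, 2347 and 1978 bp in KO. Both were marked in every library, and at both KO replicate 1 exceeded WT replicate 3. Of the 4 promoters from CIITA to SOCS1, only that of CIITA had every WT library above every KO library in length (exact permutation p = 0.1). This order was common, held by 50.8% of promoters with any covered bp. The mean WT minus KO differences were 2784 bp at CIITA, 2020 bp at DEXI, 2382 bp at CLEC16A and 943.3 bp at SOCS1. The median over all promoters was 965 bp. In percentile CIITA stood at 54.6, 52.2 and 87.6 in WT and at 0, 16.7 and 0 in KO. The control genes ACTB and GAPDH, with percentiles of 92.1 to 99.2 and 94.8 to 97.7 over the 6 libraries, were marked throughout, as SOCS1 was.

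**Figure D5:**
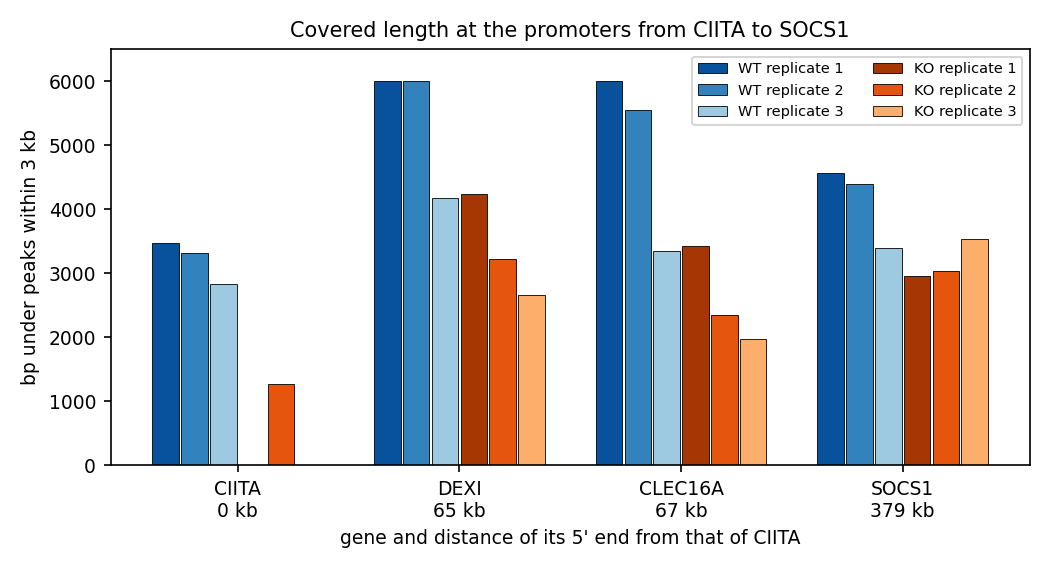
Bp under H3K4me3 peaks within 3 kb of the 5′ end for the 4 protein-coding promoters from CIITA to SOCS1, 1 bar per library, with the distance from the CIITA 5′ end under each name. CIITA has no bar in KO replicates 1 and 3 and 1275 bp in KO replicate 2, while SOCS1 has 2965 to 4567 bp in all 6 libraries.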

How the data were processed

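H3K4me3 ChIP-seq libraries of 6 U2OS clones were assigned to WT or KO by their titles, which also number the replicates. According to the methods of the study, the authors used Trimmomatic for trimming and Bowtie2 2.3.5.1 for alignment to GRCh38, removed duplicate and multimapping reads, and called broad peaks per library with MACS2 2.1.1.2 in paired-end mode at q 0.05. Whether an input was given to the caller is not given in the sources used here. Each deposited list holds a score (a display value, not used), a fold enrichment ratio averaged over the peak, and −log10 p and −log10 q values. The fold enrichment and −log10 q deposited by the authors were used only to rank or filter peaks within a list. There are no counts, so no counting interval was computed.

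Gene ends came from GENCODE release 44 (MANE Select for 19061 of 20033 protein-coding genes, otherwise the canonical transcript). Promoter sequence was read from GRCh38 at those ends, and the windows of 7 of 9 members equalled RefSeq's promoter table. Genotypes were compared by two-sided exact permutation over the 20 assignments of 6 libraries, smallest p 0.1, adjusted by the Benjamini-Hochberg method over all promoters. Separation means that every value of one genotype exceeded every value of the other. Different clones were the replicates. No 2 lists shared more than 2 identical peaks. The genes named are the 9 members, the other pathway genes with a missing peak or a separated percentile, the genes between CIITA and SOCS1, neighbours within 3 kb, and the nearest-pattern genes; members and lists were chosen with earlier results of these data known. Percentiles run from 0 to 100 and count ties at their midpoint. One promoter sequence is not reported here. The alternatives are listed in the closing section. The steps were tested on simulated lists and run in Python 3.11.15 with numpy 2.4.6, scipy 1.17.1 and matplotlib 3.10.9.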

Additional observations from a re-analysis of the deposited data

How the results depend on the processing

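The differences in covered length kept their direction at 9 of 9 members under each alternative: the 21712 top peaks of each list, peaks with −log10 q of at least 3 or fold enrichment of at least 4, a window of 1 kb, the annotated 5′ end with the most covered bp, WT replicate 3 alone (chosen with its list's kind known), each library left out, and, added after the data were seen, the full peak width. No exact permutation p fell under 0.1 in any of them. This direction was not particular to the members, as the median length difference over all promoters was positive under each alternative too. It was 264 bp with the 1 kb window, beside 252 bp over the members, and 1018 bp under the fold enrichment minimum, beside 1244 bp. Percentiles among all promoters kept 9 of 9 directions, and with at least 500 bp required for a mark the difference in marked members was still 0. Under the fold enrichment minimum the WT minus KO difference in marked members was 2.33, the members separated in length were 2 and the median percentile difference was 17.4 points. It was -0.74 over the 7503 promoters still marked in all 6 libraries, which do not include SOCS1, SOCS3, STAT2 or JAK2. The fold enrichment minimum turned the percentile differences of SOCS1 (65.7) and SOCS3 (65), whose peaks it removed in 4 libraries. The window of 1 kb, which peaks filled at 7.48 to 61.6% of reference promoters, gave a median length difference of 252 bp and 3 separated members. Its median percentile difference was -11.2 points over the members and -1.5 over the reference promoters. The same window turned the percentile differences of JAK2 (-11.9), STAT2 (-11.2), STAT3 (2.09) and PTPN2 (4.48). WT replicate 3 alone gave a median length difference of 185 bp, beside 163 bp over all promoters, and 5 members outside the KO range in percentile. That comparison turned IFNGR2 (-0.0556), JAK2 (-0.317) and SOCS1 (0.219). The percentile difference of STAT2, near 0, also turned with the other 5′ end (-0.846), which brought JAK1 to -4.3 and left 2 members separated in percentile, and the full width (-3.07). With each library left out in turn it ran from -4.12 (without KO replicate 1) to 3.94 and was -3.1 without WT replicate 1, and that of STAT3 ran from -9.04 to 2.47 (without KO replicate 1), of IFNGR1 from 3.28 (without WT replicate 2) to 21.7, and of JAK2 from 1.68 to 12.6. Leaving out 1 library gave 0 more or fewer marked members, a median length difference of 720 to 1440 bp, 5 to 9 members separated in length (9 without WT replicate 3), a median percentile difference of -4.88 to -0.598 points, and 3 to 5 separated in percentile (5 without WT replicate 3). Shares over all promoters were not computed for the counts of separated members in this section. These counts can therefore not be called particular to the members. Same-numbered libraries did not deviate together (correlations of -0.111, -0.0213 and -0.00897), and differently numbered ones gave -0.0824 to 0.0907. No pairing by number was seen, which does not exclude one, since the kinds of list differ within the WT group. With the number as a replicate block the differences were those of the unpaired comparison, such as 1206 bp at IFNGR1, and no p could fall under 0.25. For want of counts, depth could not be used to weigh any value.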
